A study of Mus musculus with 4 samples.

Results

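A set of 10 genes of neutrophils was followed in mouse hearts from a study of immune checkpoint inhibitor myocarditis. They were the alarmin genes S100a8 and S100a9, the receptor genes Cxcr2 and Csf3r with the secreted factor gene Retnlg, and the granule genes Mmp8, Lcn2, Ngp, Ltf and Camp. They were taken by symbol from the list of 19465 genes measured, and all 10 were found, each once. Hearts fixed in formalin and embedded in paraffin had been sectioned and measured with the Visium spatial assay, in which UMIs (unique molecular identifiers, one for each captured molecule) are counted per gene in small regions called spots. All animals were wild type FVB/NJ mice immunized with a MyHCα peptide (from the alpha heavy chain of cardiac myosin), and all received dual immune checkpoint inhibitors (ICIs) that block CTLA-4 and PD-1. In 2 sections, the antibody sections, an IL-17A neutralizing antibody had been added. In the other 2, the ICI-alone sections, it had not, and the labels record that myocarditis developed in that group. Each group holds 1 section of batch 1 and 1 of batch 2, used as replicate numbers 1 and 2. Age, sex and doses are not given in the sources used here, and no heart without ICIs was analysed here. Nothing in the labels says that sections came from separate animals, so the p-values measure only the spread between these sections.

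S100A8 and S100A9 pair to form calprotectin, a calcium- and zinc-binding complex that makes up much of the neutrophil cytosol and acts as an alarm signal through TLR4 once released. CXCR2 is the receptor by which neutrophils follow CXC chemokines such as CXCL1 and CXCL5, and CSF3R is the receptor for G-CSF, the growth factor that drives neutrophil production. Granule proteins are made in waves in the bone marrow: azurophil granule proteins such as MPO and elastase come first, and the specific granule proteins lactoferrin (Ltf), neutrophilic granule protein (Ngp) and cathelicidin (Camp) follow in myelocytes. Neutrophils that leave the marrow carry the proteins but little of those messengers, whereas S100a8, S100a9, Cxcr2 and Csf3r are transcribed in circulating cells. Lipocalin 2 (Lcn2) binds bacterial siderophores and is also made by many stromal, epithelial and muscle cells under IL-17A and IL-1β. IL-17A acts on such non-immune cells, which then release CXC chemokines and G-CSF.

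S100a8 lies on chromosome 3 at 90669071 to 90670034 and S100a9 nearby, at 90692630 to 90695721 on the opposite strand (GRCm38.p6). Ngp (110419808 to 110423012), Ltf (111019292 to 111042766) and Camp (109847377 to 109849456) lie in one stretch of chromosome 9, which also carries Mmp8 (7558429 to 7568486). Lcn2 lies on chromosome 2 at 32384637 to 32387739. The 250 bases before the start of the 6 genes that the results turn on are shown from RefSeq, 5′ to 3′ on the strand of the gene, because the alarmin pair moved together and Ngp, Ltf and Camp correlated across the spots of ICI-alone section 2. Capitals mark each match to TTNNGNAA, a core of the motif of C/EBP factors, which drive granule genes in neutrophil precursors.
S100a8 (chr3:90668821-90669070, plus strand): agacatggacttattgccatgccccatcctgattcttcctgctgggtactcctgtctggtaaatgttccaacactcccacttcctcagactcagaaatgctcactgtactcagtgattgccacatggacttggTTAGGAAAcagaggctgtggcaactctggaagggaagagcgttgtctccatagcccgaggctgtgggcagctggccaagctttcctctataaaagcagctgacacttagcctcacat
S100a9 (chr3:90695722-90695971, minus strand): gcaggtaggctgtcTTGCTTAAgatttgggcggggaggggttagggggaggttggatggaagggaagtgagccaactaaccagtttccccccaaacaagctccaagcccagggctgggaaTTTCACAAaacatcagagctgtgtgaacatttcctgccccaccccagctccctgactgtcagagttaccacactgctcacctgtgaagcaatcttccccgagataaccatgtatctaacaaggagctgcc
Lcn2 (chr2:32387740-32387989, minus strand): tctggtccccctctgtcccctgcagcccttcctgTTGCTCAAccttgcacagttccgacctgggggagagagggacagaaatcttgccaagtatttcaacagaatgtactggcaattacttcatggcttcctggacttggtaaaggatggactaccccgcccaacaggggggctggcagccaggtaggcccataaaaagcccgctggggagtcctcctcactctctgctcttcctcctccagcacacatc
Ngp (chr9:110419558-110419807, plus strand): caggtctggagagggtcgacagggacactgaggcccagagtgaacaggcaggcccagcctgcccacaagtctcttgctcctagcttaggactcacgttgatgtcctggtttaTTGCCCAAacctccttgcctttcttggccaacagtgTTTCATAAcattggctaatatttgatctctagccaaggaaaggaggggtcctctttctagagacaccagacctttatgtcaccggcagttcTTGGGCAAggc
Ltf (chr9:111019042-111019291, plus strand): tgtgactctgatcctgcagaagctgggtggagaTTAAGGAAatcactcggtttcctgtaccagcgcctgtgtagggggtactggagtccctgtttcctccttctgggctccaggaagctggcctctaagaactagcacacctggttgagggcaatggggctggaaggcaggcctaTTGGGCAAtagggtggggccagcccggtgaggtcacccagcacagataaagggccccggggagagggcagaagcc
Camp (chr9:109849457-109849706, minus strand): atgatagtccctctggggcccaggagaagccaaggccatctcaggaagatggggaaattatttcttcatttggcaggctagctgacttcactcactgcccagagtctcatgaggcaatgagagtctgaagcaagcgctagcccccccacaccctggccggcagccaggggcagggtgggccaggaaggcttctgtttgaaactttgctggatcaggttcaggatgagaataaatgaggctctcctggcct

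Of the 10 members, 7 held the motif on either strand in this window, against 36.8% of 32851 RefSeq promoter windows of the same length. S100a8 had it at -117, S100a9 at -236 and -130, Lcn2 at -216, Ngp at -138, -102 and -11, and Ltf at -217 and -75, where -1 is the base before the start and a position gives the leftmost base of the match. Retnlg and Mmp8 held it too, and the Camp, Cxcr2 and Csf3r windows held no match. The NF-κB motif GGGAANNNCC was found in none of the 10 windows and in 4.94% of all windows. These are letter matches in short windows and say nothing of binding.

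Tissue covered 2604 and 2585 spots in the antibody sections (47882576 and 33005923 UMIs in total) and 2503 and 3052 spots in the ICI-alone sections (73167202 and 66255242 UMIs). Heart muscle was present throughout, with 6 cardiomyocyte genes at 57358 and 47934 CPM (UMI counts scaled to a common library total) in the antibody sections and 35076 and 22223 in the ICI-alone sections. The summed level of 10 macrophage genes was 1025 and 1649 CPM with the antibody, against 2105 and 2708 with ICIs alone, and 10 T cell genes stood at 105 and 114 CPM, against 87.9 and 81.3. Of 5 fibroblast genes, which summed to 1258 and 1286 CPM with the antibody and 3835 and 9392 CPM with ICIs alone, 3 fell, and most of the difference in the sum was Col1a1 (413 and 429 CPM, against 2519 and 7741). Hemoglobin and other erythroid genes stood at 1976 and 1854 CPM, against 1466 and 519.7. Spots with over 1% of UMIs on 4 atrial genes occurred in antibody section 2 alone, where there were 163. The classical neutrophil surface marker Ly6g was near the level of genes of other tissues, with 13 and 17 UMIs in the antibody sections and 27 and 51 in the ICI-alone sections. None of the 6 cardiomyocyte genes passed the whole-section test. The summed macrophage and fibroblast levels were thus lower with the antibody, and the T cell, erythroid and muscle sums higher, without overlap between the groups. Their part in the results below was not tested. In a bulk sum or a spot, fewer cells of a type and less RNA per cell cannot be told apart.

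Of the 10 genes, 7 fell with the IL-17A antibody over whole sections: both alarmins, Cxcr2, Csf3r, Retnlg, Mmp8 and Lcn2. The falls ran from 3.57-fold for Csf3r to 12.4-fold for S100a9. Ngp, Ltf and Camp did not pass the test, and no member rose. Over all 18817 genes tested, 8.81% fell and 3.03% rose (edgeR's quasi-likelihood test on UMIs summed per section, TMM scaling, Benjamini-Hochberg adjusted p under 0.05). The median log2 fold change of the members was -2.64, against 0.09 over all genes tested. Scaled by library size alone, the calls over all genes were split 840 higher to 1029 lower in place of 571 to 1658, and with batch as a block there were 1520 higher and 2319 lower. These 7 members fell in both of those fits as well.

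**Figure D1:**
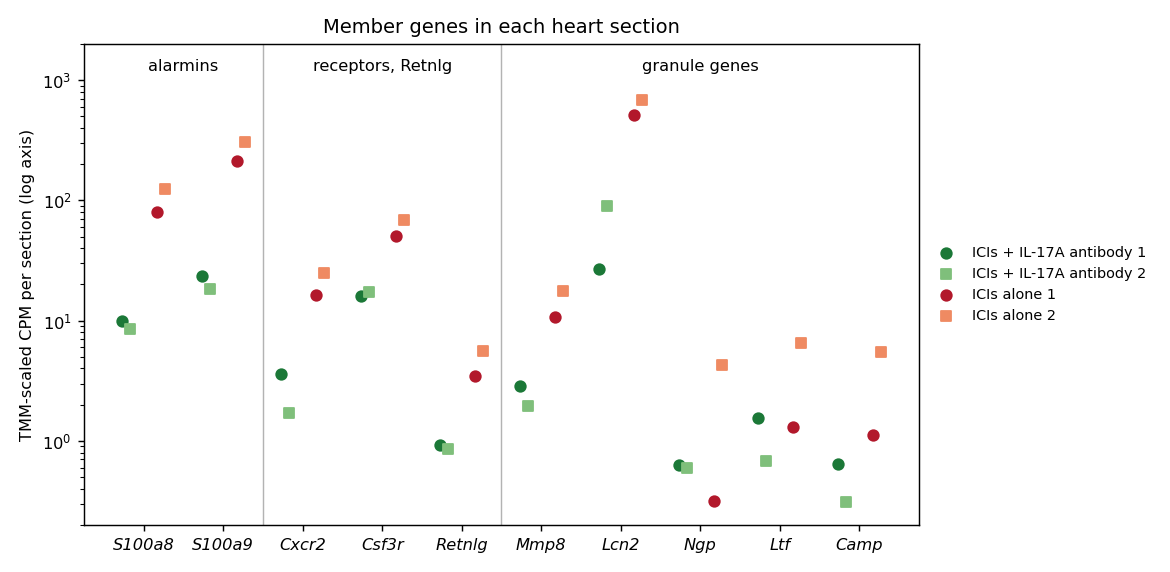
TMM-scaled CPM (log axis) of the 10 member genes in the 2 antibody sections (green, left of each pair) and the 2 ICI-alone sections (red and orange, right); circles are batch 1 and squares batch 2. For the 7 genes from S100a8 to Lcn2 and for Camp both green points lie below both ICI-alone points. For Ngp, Ltf and Camp ICI-alone section 2 stands apart from the rest. The share of all genes separated in this way by CPM was not computed. By share of spots with a UMI it was 24.1% of 19235 genes.

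S100a9 had 1125 and 642 UMIs in the antibody sections, against 14284 and 20782 in the ICI-alone sections. As TMM-scaled CPM this was 23.5 and 18.2 with the antibody and 214 and 306 with ICIs alone, so the groups did not overlap. S100a9 fell by 3.64 on the log2 scale (SE 0.25, edgeR adjusted p 0.0155). Its partner S100a8 had 476 and 298 UMIs, or 9.94 and 8.47 CPM, in the antibody sections and 5303 and 8468 UMIs, or 79.3 and 125 CPM, in the ICI-alone sections. S100a8 was thus 11.1-fold lower with the antibody, at -3.47 (SE 0.25, edgeR adjusted p 0.0155). The pair kept close to one ratio in all 4 sections: for each S100a8 UMI there were 2.36 and 2.15 S100a9 UMIs with the antibody and 2.69 and 2.45 with ICIs alone.

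The receptor genes fell by different amounts. Cxcr2 stood at 3.57 and 1.71 CPM (171 and 60 UMIs) in the antibody sections, against 16.5 and 25.0 CPM (1102 and 1699 UMIs) in the ICI-alone sections, a log2 fold change of -2.95 (SE 0.36, edgeR adjusted p 0.0210). Csf3r stood at 16.2 and 17.2 CPM (774 and 604 UMIs), against 50.4 and 68.6 CPM (3367 and 4663 UMIs), at -1.84 (SE 0.18, edgeR adjusted p 0.0175). For both receptors the groups were well separated, and the 2 antibody sections lay closest together for Csf3r. Csf3r lost less than the alarmins: per 100 UMIs of S100a9 there were 68.8 and 94.1 Csf3r UMIs with the antibody and 23.6 and 22.4 with ICIs alone. The corresponding Cxcr2 figures, 15.2 and 9.35 against 7.71 and 8.18, lay closer together. For such a ratio the exact two-sided permutation test over 2 and 2 sections cannot go below p = 0.333. Retnlg, which encodes a resistin-like protein of rodent neutrophils, was rare, at 0.919 and 0.853 CPM (44 and 30 UMIs) with the antibody and 3.46 and 5.63 CPM (231 and 383 UMIs) with ICIs alone. It fell by 2.35 (SE 0.32, edgeR adjusted p 0.0210), with no overlap between the groups.

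Among the granule genes, Mmp8, which encodes neutrophil collagenase, had 138 and 68 UMIs (2.88 and 1.93 CPM) with the antibody and 721 and 1201 UMIs (10.8 and 17.7 CPM) with ICIs alone. It fell by 2.55 (SE 0.31, edgeR adjusted p 0.0210). Lcn2 had 1283 and 3145 UMIs, or 26.8 and 89.4 CPM, with the antibody and 34297 and 46357 UMIs, or 513 and 682 CPM, with ICIs alone. The 2 antibody sections differed more from each other for Lcn2 than for any other of the 7 genes that fell, yet both lay far below the ICI-alone sections. Its mean was 58.1 ± 44.3 CPM with the antibody and 597 ± 119 CPM with ICIs alone (SD, n = 2 sections each), at -3.36 (SE 0.54, edgeR adjusted p 0.0225). Scaled by library size, the Lcn2 difference within batch 1 was -4.13 and within batch 2 it was -2.88. For S100a9 the order of the batches was the other way, with -3.05 and -4.01.

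For the specific granule genes Ngp and Ltf the difference rested on ICI-alone section 2, and the Camp difference was larger with that section than without it. Camp had 31 and 11 UMIs with the antibody and 75 and 370 with ICIs alone, at -2.73 (SE 0.76, edgeR adjusted p 0.0582). Ltf had 74 and 24 UMIs with the antibody and 87 and 439 with ICIs alone, at -1.77 (SE 0.72, edgeR adjusted p 0.131). Ngp had 30 and 21 UMIs with the antibody and 21 and 293 with ICIs alone, at -1.91 (SE 1.00, edgeR adjusted p 0.207). ICI-alone section 2 was the highest section for all 3 genes, and for Camp both antibody sections lay below both ICI-alone sections. Scaled by library size, in batch 1 Ngp stood at +1.13 and Ltf at +0.38 (log2, antibody over ICI alone), while Camp was at -0.66. In batch 2 the values were -2.80 for Ngp, -3.19 for Ltf and -4.07 for Camp. Without ICI-alone section 2, Ngp turned to +0.96 (adjusted p 0.129), and Ltf and Camp were at -0.19 (0.764) and -1.17 (0.0554) in edgeR. Without ICI-alone section 1, all 3 passed the test as lower with the antibody, at -2.87 (9.2e-07), -2.56 (7.7e-06) and -3.51 (2.3e-07). Camp also passed in edgeR at library-size scaling (adjusted p 0.0493) and without the 20 most abundant genes.

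**Figure D2:**
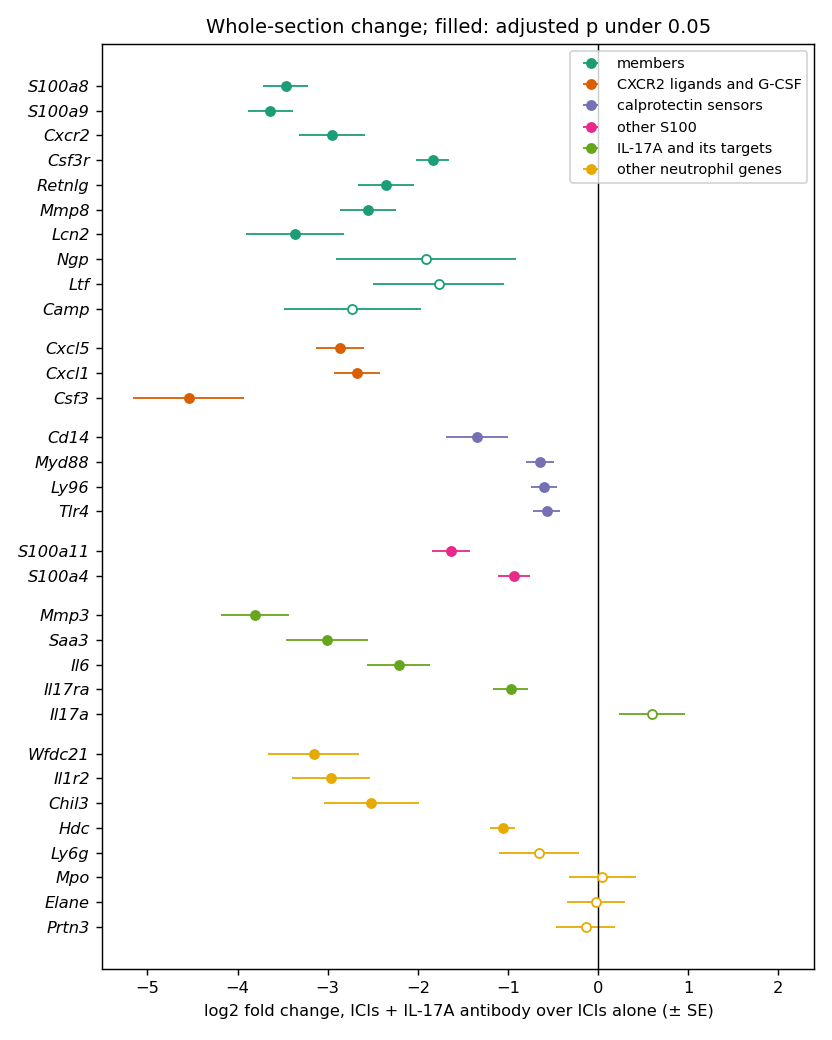
Whole-section log2 fold change with its standard error (edgeR, antibody over ICI alone) for the 10 members and the named genes of related lists; filled points have an adjusted p under 0.05. Csf3 at -4.54 and Mmp3 at -3.81 lie below S100a9 at -3.64, and Mpo, Elane and Prtn3 lie near 0.

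The share of spots that held a member gave the same picture at equal depth. Every spot was thinned to 5000 UMIs, and the spots below that depth were left out (105 and 37 in the antibody sections, 11 and 4 in the ICI-alone sections). S100a9 was then found in 7.0% and 6.48% of spots in the antibody sections, against 40.4% and 55.0% in the ICI-alone sections. Without thinning those shares were 15.9% and 13.8%, against 68.3% and 78.4%. S100a8 was found in 3.32% and 3.69% of spots with the antibody and in 24.0% and 36.1% with ICIs alone. Both alarmins were thus detected in a smaller share of the tissue with the antibody. Lcn2 was found in 9.24% and 29.1% of spots with the antibody and in 70.1% and 86.4% with ICIs alone. Csf3r was found in 6.28% and 7.22% of spots, against 16.3% and 23.9%. Both antibody sections lay below both ICI-alone sections for 8 of the 10 members, against 24.1% of 19235 genes, and the exact permutation p was 0.333 for each, the smallest that 4 sections allow.

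The rare members were near the background of the assay. Genes of other tissues (insulin, prolactin, protamines and the like, 10 in all) reached at most 0.600% and 0.667% of thinned spots in the antibody sections and 0.281% and 0.361% in the ICI-alone sections. Ngp was below those limits in 3 sections (0.280% and 0.275% with the antibody and 0.120% in ICI-alone section 1) and above them in ICI-alone section 2 (1.51%). Ltf was at 1.04% and 0.353% with the antibody and at 0.682% and 1.94% with ICIs alone. The thinned Retnlg shares were 0.640% and 0.353%, against 1.65% and 2.89%. By share, antibody section 2 alone was thus within background for Retnlg. By CPM scaled to library size, Retnlg (0.919 and 0.909) was below the highest of those genes in both antibody sections. Cxcr2 (1.82 CPM) and Mmp8 (2.06 CPM) were below it (2.24 CPM) in antibody section 2 only. For Retnlg, Cxcr2 and Mmp8 the size of the fall thus rests in part on values within background. Camp was below that limit in both antibody sections (0.647 and 0.333 CPM) and ICI-alone section 1 (1.03 CPM). It was above it in ICI-alone section 2 (5.58 CPM).

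**Figure D3:**
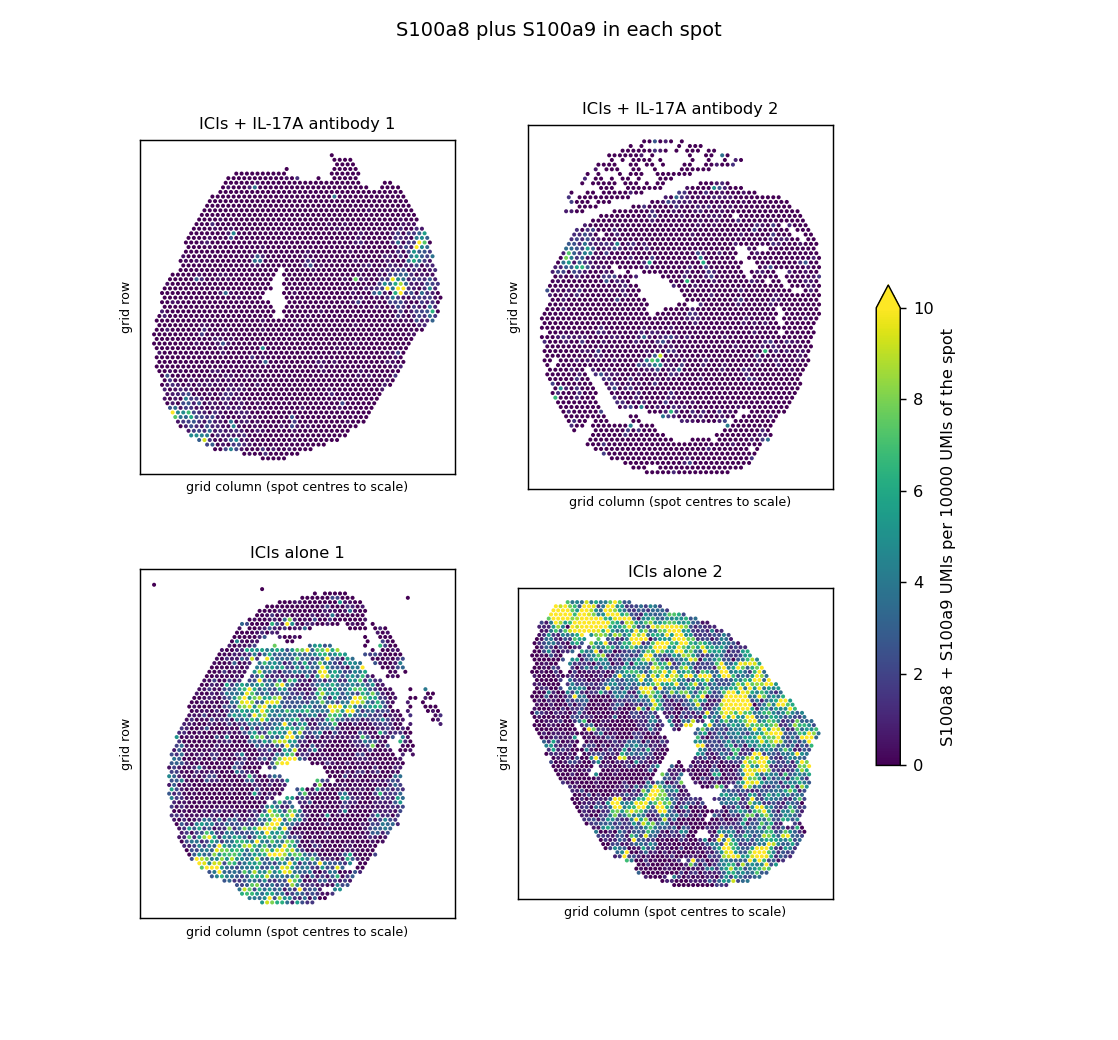
S100a8 plus S100a9 UMIs per 10000 UMIs of each spot, drawn at the grid position of the spot, in the antibody sections (top) and the ICI-alone sections (bottom); colours stop at 10. The antibody sections show a few small patches, and the ICI-alone sections show wide areas of high spots with areas of low spots between them.

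Genes for the attraction and production of neutrophils were read beside the members. Of 7 listed CXCR2 ligand and growth factor genes, 6 were tested and 3 fell, none rose, and the list median was -1.99 against 0.09 over all genes. Cxcl5, which encodes a CXCR2 ligand made by stromal cells, was at 36.0 and 49.9 CPM with the antibody, against 258 and 366 with ICIs alone (-2.86, SE 0.26, edgeR adjusted p 0.0175). Cxcl1, which encodes another CXCR2 ligand, was at 17.7 and 25.2 CPM, against 111 and 163 (-2.68, SE 0.25, edgeR adjusted p 0.0175). Csf3, which encodes G-CSF, was rare, with 6 and 3 UMIs in the antibody sections and 99 and 248 in the ICI-alone sections (-4.54, SE 0.61, edgeR adjusted p 0.0211). These 3 genes thus had no overlap between groups. Scaled by library size, the groups did not overlap for Cxcl3 and Ppbp either, and these 2 genes did not pass the test.

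Of 10 listed genes of IL-17 receptor signalling and its targets, 7 fell and none rose, with a median of -0.93. Mmp3, encoding the matrix protease stromelysin, was at 4.99 and 8.53 CPM with the antibody and 64.9 and 124 with ICIs alone (-3.81, edgeR adjusted p 0.0175). Saa3, an acute phase gene (-3.00, edgeR adjusted p 0.0222), and the cytokine gene Il6 (-2.21, edgeR adjusted p 0.0225) fell as well. The receptor gene Il17ra fell by 0.97 (edgeR adjusted p 0.0308), a call lost in 2 of 16 alternatives. Il17a itself had 117 and 42 UMIs with the antibody and 76 and 88 with ICIs alone, at +0.60 (edgeR adjusted p 0.265). Scaled by library size it stood at 2.44 and 1.27 CPM with the antibody and 1.04 and 1.33 with ICIs alone. The highest of 10 genes of other tissues stood at 1.5 and 2.24 CPM, against 1.13 and 0.830, so Il17a was above that background in 1 section of each group.

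Of 7 genes for calprotectin sensing, 4 fell, none rose, and the median was -0.57. Cd14, a co-receptor of TLR4, fell by 1.34, while Myd88 (-0.65), Ly96 (-0.60) and Tlr4 (-0.57) changed less, with edgeR adjusted p from 0.0420 to 0.0492. These calls were lost in 5 of 16 alternatives for Cd14 and Ly96 and in 7 of 16 for Myd88 and Tlr4, and with batch as a block the Cd14 value had an adjusted p of 0.0523. Of 11 other S100 genes, 2 fell and none rose, with a median of -0.45. S100a11 fell by 1.63 (edgeR adjusted p 0.0210) and S100a4, a gene of fibroblasts and macrophages, by 0.93 (edgeR adjusted p 0.0268), a call lost in 3 of 16 alternatives, with an adjusted p of up to 0.108. S100a8 and S100a9 thus had larger falls than any of the other 11 tested, the lowest of which was -1.63.

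Other neutrophil genes were read in lists named by stage, and not every gene is limited to the stage of its list. Of 20 further tested genes listed for mature or activated neutrophils, 13 fell and none rose, with a median of -1.48. Examples are Wfdc21 (-3.16, edgeR adjusted p 0.0225), the decoy receptor gene Il1r2 (-2.96, 0.0217) and Hdc, which encodes histidine decarboxylase (-1.06, 0.0210). Not every gene of this list is particular to neutrophils, and macrophages also express Acod1 and Il1b. These stood at 178 and 143 CPM in antibody section 1, where the list summed to 555 CPM. The count of 13 thus cannot be read as neutrophils alone. None of the 5 azurophil granule genes passed the test in either direction. Mpo was at +0.05 and Prtn3 at -0.14, and Elane was at -0.02, with signs that depend on the setting. These genes had few UMIs, such as 24 and 15 with the antibody and 22 and 39 with ICIs alone for Mpo. Of 5 genes listed for neutrophil precursors 1 fell, Chil3 (-2.52, edgeR adjusted p 0.0329), a gene that macrophages also express. The Chil3 call was lost without antibody section 2. That list also holds Ltb4r1, which is not limited to precursors and stood at 21.2 of the 28.6 CPM of the list in antibody section 1. Ly6g was at -0.65 (edgeR adjusted p 0.310) and the pan-leukocyte gene Ptprc at -0.42 (edgeR adjusted p 0.128). Beside these, 7 of 10 macrophage genes and 3 of 5 monocyte genes fell, and 0 of 10 T cell genes passed.

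Position was examined first against spots rich in macrophage and T cell transcripts, defined without any member gene. Such immune-rich spots reached at least 19 UMIs of 20 macrophage and T cell genes after thinning, and they numbered 31 and 115 in the antibody sections and 235 and 622 in the ICI-alone sections. Immune-rich spots were compared with the other spots of the same section, with the section as a block. Mmp8 and Csf3r were higher in immune-rich spots, and none of the other 8 members passed. Over the 17283 genes tested, 10.7% were higher and 12.6% lower. Csf3r was at 0.61 (log2, SE 0.15, edgeR adjusted p 0.00781) and kept its call in all 12 alternatives. Mmp8 was at 0.66 (SE 0.14, edgeR adjusted p 0.00466), a call lost in 4 of 12 alternatives, with adjusted p 0.114 without ICI-alone section 1 and 0.0775 without ICI-alone section 2. S100a8 (0.22, edgeR adjusted p 0.343) and S100a9 (0.07, 0.853) did not differ beyond the spread between sections, and the sign for S100a9 depends on the setting. When spots were ranked by T cell genes alone, both alarmins were higher in the immune-rich spots, at 0.82 for both and adjusted p 0.0361 and 0.0278.

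The sections disagreed on where the alarmins lay. S100a9 had 58.1 CPM in immune-rich spots and 23.1 in the others in antibody section 1, but 11.3 and 19.8 CPM in antibody section 2. In ICI-alone section 1 it had 270.3 and 186 CPM and in ICI-alone section 2 it had 279.6 and 323 CPM. Higher and lower values in immune-rich spots thus occurred once in each group. Csf3r was higher in immune-rich spots in all 4 sections, with 56.7 against 15.6 and 32.7 against 17.5 CPM in the antibody sections, and 70.9 against 43.0 and 84.7 against 66.4 CPM in the ICI-alone sections.

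Lcn2 was the one member whose position differed with treatment at the main settings. It had 81.4 CPM in immune-rich and 26.1 CPM in other spots of antibody section 1, and 240.4 and 87.7 CPM in antibody section 2. In ICI-alone section 1 the values were 673 and 444 CPM, and in ICI-alone section 2 they were 545 and 742 CPM. The immune-rich spots were thus higher by 1.64 and 1.45 on the log2 scale with the antibody and by 0.60 and -0.44 with ICIs alone. The interaction of treatment with spot class was 1.39 for Lcn2 (SE 0.28, edgeR adjusted p 0.0109), and 0.515% of the 17283 genes had a positive and 0.0289% a negative interaction that passed. The call was lost in 5 of 12 alternatives. These were DESeq2, the top 20% of spots taken as immune-rich, and leaving out ICI-alone section 2 or either antibody section. The interaction was 0.88 without ICI-alone section 2, 1.37 without antibody section 1 and 1.44 without antibody section 2. At the main settings Csf3r was at 0.71 in the interaction test (edgeR adjusted p 0.175). With spots ranked by T cell genes alone, Cxcr2, Csf3r and Camp passed beside Lcn2, and with no filter on low counts Csf3r did.

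Treatment was then compared within each spot class. In the other spots the same 7 members fell, with S100a9 at -3.65 and S100a8 at -3.46 (both edgeR adjusted p 0.0204), Lcn2 at -3.49 (0.0257) and Csf3r at -1.82 (0.0213). There 8.71% of 18587 genes fell, and with batch as a block Camp passed as well (-2.37, adjusted p 0.0436). Without antibody section 1 or without antibody section 2, edgeR called none of the members in the other spots, with the fold changes keeping their sign. In immune-rich spots 8 members could be tested and none passed, with 0.0326% of 12280 genes called lower. The values there were -3.09 for S100a8 (edgeR adjusted p 0.0559), -3.31 for S100a9 (0.0633), -2.76 for Mmp8 (0.0647), -2.37 for Cxcr2 (0.0996), -1.94 for Lcn2 (0.0979) and -0.97 for Csf3r (0.119). With batch as a block 326 genes were called in place of 6, and S100a8, S100a9, Cxcr2, Mmp8 and Lcn2 were among them, with adjusted p from 0.000517 to 0.0291. Over all 13 alternatives S100a8 passed as lower in 10, S100a9 in 9, Lcn2 in 8, Cxcr2 and Mmp8 in 7 each and Csf3r in 4. The immune-rich test rested on 31 spots in antibody section 1, where S100a9 had 40 UMIs. The make-up of these spots also differed between the groups. All 10 T cell genes were higher there with the antibody (median log2 fold change 1.70, 1 passed), and all 10 macrophage genes were lower (median -0.41, none passed). The comparison thus did not hold the mix of cells constant.

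Levels by distance from the nearest immune-rich spot showed how the sections differed. Distance was counted in grid steps. S100a9 in ICI-alone section 1 was at 270.3 CPM in immune-rich spots, 169 CPM at 3 steps and 39.0 CPM at 6 or more. In ICI-alone section 2 it was at 279.6, 330.3 and 80.4 CPM at the same distances, with 24 spots in the last ring. In antibody section 1 it was at 58.1, 42.4 and 11.6 CPM, and in antibody section 2 at 11.3, 15.5 and 24.1 CPM. S100a9 thus declined with distance in both sections of batch 1, changed little up to 5 steps in ICI-alone section 2, and was higher far from immune-rich spots in antibody section 2. Lcn2 declined with distance in both antibody sections, with 81.4 to 12.1 CPM in section 1 and 240.4 to 43.2 CPM in section 2 between the immune-rich spots and the last ring. Lcn2 in ICI-alone section 1 was at 673 CPM in the immune-rich spots and 123 CPM in the last ring, while in ICI-alone section 2 it was at 545 and 851 CPM.

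**Figure D4:**
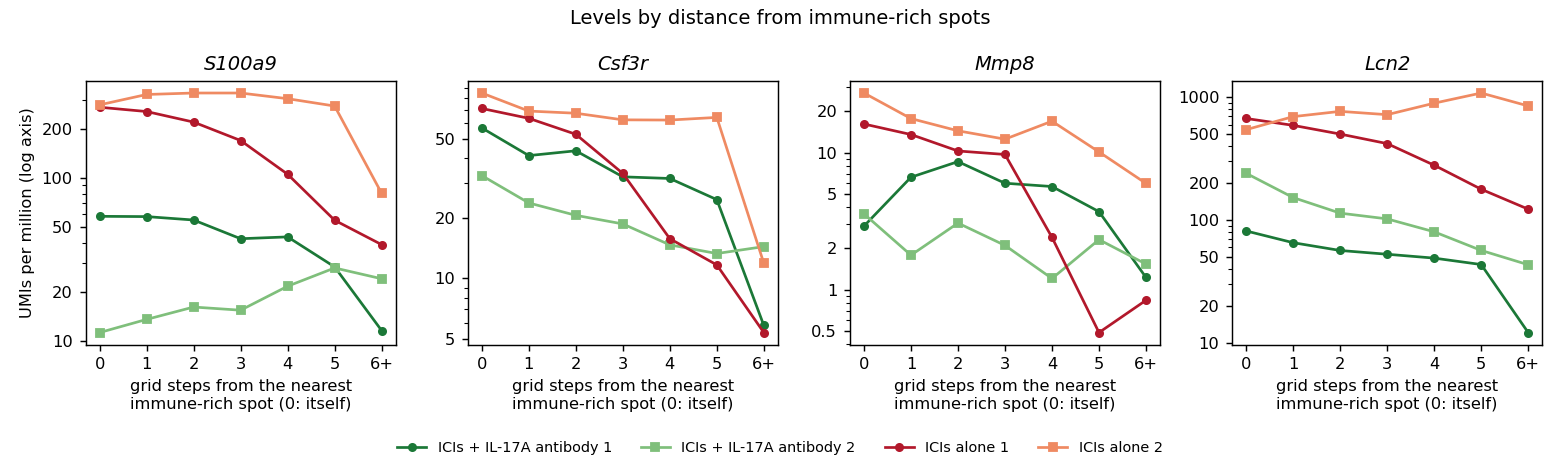
CPM (log axis) of S100a9, Csf3r, Mmp8 and Lcn2 in immune-rich spots (0) and at 1 to 6 or more grid steps from the nearest one, with 1 line for each of the 4 sections. Lcn2 falls with distance in 3 sections and rises in ICI-alone section 2, from 545 CPM at 0 to 1085 CPM at 5 steps.

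The tissue edge gave no call for the members. Edge spots, with at least 1 of their 6 neighbours off the tissue, numbered 229 and 609 in the antibody sections and 423 and 423 in the ICI-alone sections. Of these, 29 and 298 in the antibody sections and 109 and 208 in the ICI-alone sections lay around enclosed gaps. The rest lay at the outer edge, so the mix differed between sections. Between edge and interior spots none of the 10 members passed, against 2.14% of 16006 genes. S100a8 was at -0.36 (edgeR adjusted p 0.232), Mmp8 at -0.68 (0.0950) and Lcn2 at 0.40 (0.237). S100a8 had 16.4 CPM at the edge and 9.39 inside in antibody section 1, 5.83 and 9.95 in antibody section 2, 61.9 and 74.2 in ICI-alone section 1, and 98.7 and 131 in ICI-alone section 2. Without antibody section 1, where the pattern ran the other way, S100a8 and S100a9 passed as lower at the edge, at -0.49 (edgeR adjusted p 0.0151) and -0.57 (0.00694). The interaction of treatment with the edge gave no gene at the threshold (edgeR, 0% of 16006), with 1679 genes at an unadjusted p under 0.05. Without antibody section 2 the same fit holds 1 antibody section, so it describes antibody section 1 alone. In that section the edge value over the interior was above that of both ICI-alone sections for all 10 members. How large a share of all genes did the same was not computed, so this describes 1 section and is no trait of the members. For S100a9 the edge value over the interior was 0.92 on the log2 scale in that section, against -0.31 and -0.55 with ICIs alone, while antibody section 2 was at -0.64.

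Spots rich in Ngp, Ltf and Camp were then described. Spots with at least 3 summed UMIs of these genes numbered 5 and 0 in the antibody sections and 6 and 54 in the ICI-alone sections. In ICI-alone section 2 those 54 spots held 2.20% of all UMIs of the section, but 70.3% of its Ngp UMIs, 61.0% of its Ltf UMIs and 58.1% of its Camp UMIs. The spots were chosen by these 3 genes, so these shares are a description. They formed 21 groups of touching spots, the largest of 16 spots with 342 of the 1102 UMIs of the 3 genes. Outside the 54 spots that section still had 1.34 CPM of Ngp, 2.64 of Ltf and 2.39 of Camp, the highest of the 4 sections outside such spots. The highest spot there had 42 Ngp, 69 Ltf and 47 Camp UMIs with 107 S100a8 and 166 S100a9 UMIs, and it had 0 UMIs of Cxcr2, Csf3r and Mmp8 among 22769. Inside the 54 spots S100a8 stood at 439.5 CPM and S100a9 at 898 CPM, against 121 and 301 CPM in the rest of that section. Cxcr2 was at 28.1 CPM inside and 25.6 CPM outside, and Lcn2 at 848 and 696 CPM. Csf3r was at 89.0 and 70.0 CPM and Mmp8 at 25.3 and 18.0 CPM, so both were higher inside. At such levels 1 spot of 22769 UMIs holds few UMIs of these receptors or Mmp8, so the 0 counts of the highest spot say little. The azurophil genes Mpo, Elane, Prtn3, Ctsg and Ms4a3 summed to 0.685 CPM inside and 2.92 CPM outside. They had 22 to 72 UMIs each in that whole section, so the inside value rests on very few UMIs. The direction also varied, with 9.54 CPM inside and 2.43 outside in antibody section 1 and 0 and 1.91 in ICI-alone section 1. Of the 54 spots, 9 were immune-rich. In antibody section 1 the 5 spots held 14 of 30 Ngp UMIs, and S100a9 was at 620.3 CPM inside them and 22.2 CPM outside.

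**Figure D5:**
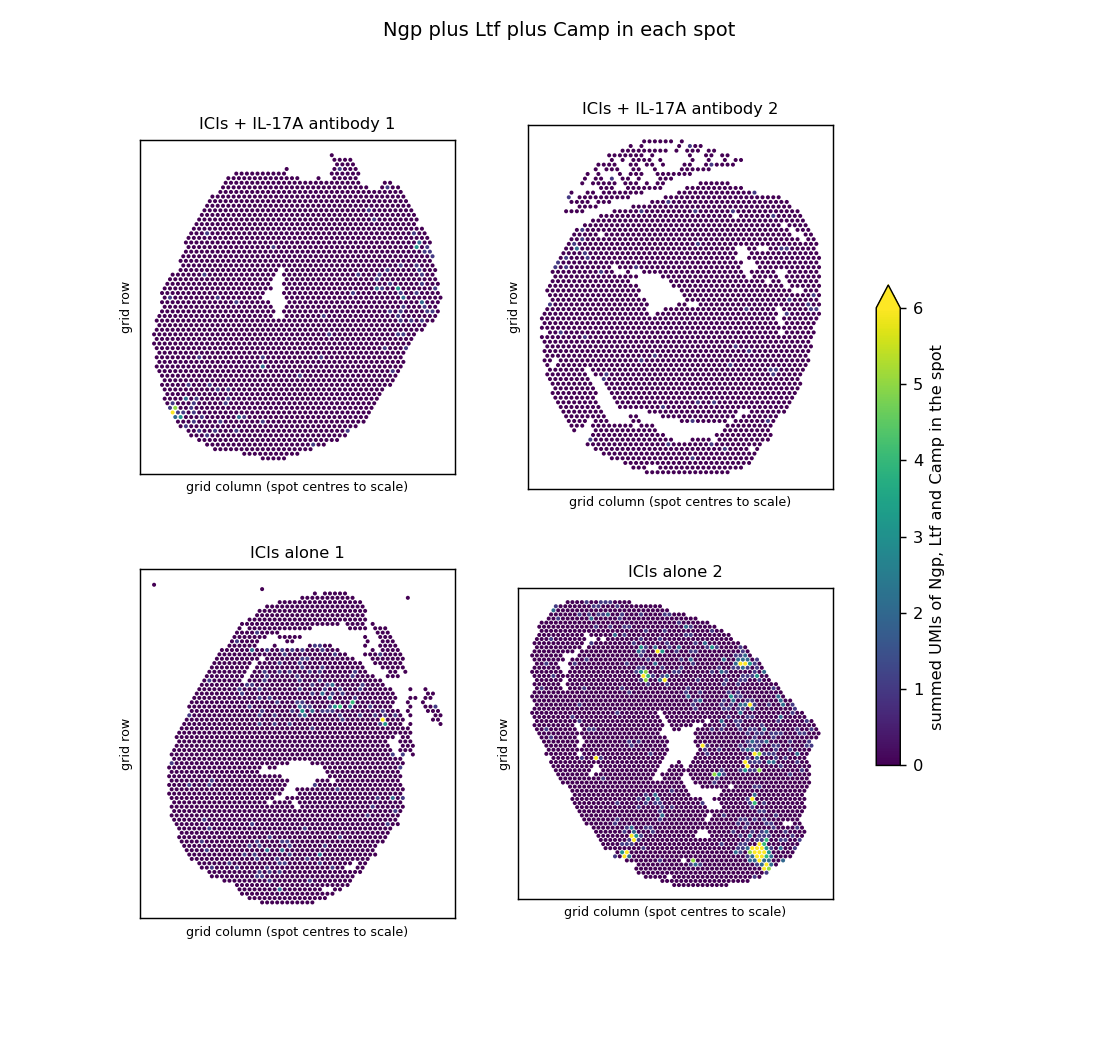
Summed UMIs of Ngp, Ltf and Camp in each spot at its grid position, in the antibody sections (top) and the ICI-alone sections (bottom); colours stop at 6. High spots lie in small groups, most of them in ICI-alone section 2, where 54 spots have 3 UMIs or more.

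Across spots, the closest link among the members was within the alarmin pair, and the specific granule genes were closely linked in ICI-alone section 2. Pearson correlations of log2(thinned UMIs + 1) were computed within each section over 2492 to 3048 spots, which share library and neighbours, and averaged over the 4 sections. S100a8 and S100a9 had the highest mean of the 45 pairs, 0.37, with 0.38 and 0.22 in the antibody sections and 0.41 and 0.46 in the ICI-alone sections. In ICI-alone section 2 the pairs among Ngp, Ltf and Camp reached 0.43 to 0.47. They were at 0.19 to 0.37 in antibody section 1, near 0 in antibody section 2 and at most 0.08 in ICI-alone section 1. Their means over the 4 sections, 0.16 to 0.20, were below those of Csf3r with S100a9 and with S100a8 (0.22). S100a9 and Csf3r had a mean of 0.25, and S100a9 and Lcn2 one of 0.15. Of the spots with a thinned S100a8 UMI, 48.2% and 29.8% also had S100a9 in the antibody sections and 72.7% and 75.4% in the ICI-alone sections, against 5.59%, 5.58%, 30.2% and 43.4% of the spots without S100a8.

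Lcn2 was also found in spots where no other member was seen after thinning. Thinning removes UMIs, so such spots can hold other members at full depth. Among spots with no thinned UMI of the other 9 members, 7.67% and 26.8% held Lcn2 in the antibody sections (95% exact binomial intervals 6.57% to 8.88% and 24.9% to 28.7%), against 57.9% and 82.1% in the ICI-alone sections. Among spots with at least 1 such UMI the shares were 18.2% and 41.1%, against 81.1% and 88.2%. Binomial intervals cover counting error only. Spots without the other members were 85.0% and 83.9% of spots in the antibody sections and held 70.5% and 76.1% of the thinned Lcn2 UMIs. In the ICI-alone sections they were 47.5% and 29.7% of spots and held 31.6% and 24.8% of those UMIs, so in all 4 sections their share of Lcn2 was below their share of spots. The 5 genes whose spot pattern was most like that of Lcn2 among 9329 compared were Serpina3n, an acute phase serpin gene (mean r 0.42), the metallothionein gene Mt2 (0.41), Clu (0.36), the collagen gene Col3a1 (0.36) and Aldh1a2 (0.35). For S100a9 they were the interleukin gene Il1b (0.39), Timp1 (0.37), Il1rn (0.37), Actb (0.35) and Acod1 (0.35). For Csf3r they were Il1rn (0.36), the galectin gene Lgals3 (0.34), Arg1 (0.34), Il1b (0.33) and Actb (0.33). The Lcn2 list shared no gene with the lists of S100a9 and Csf3r, which shared Il1b, Il1rn and Actb.

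The authors' deposited table gives Moran's I, a measure of how alike neighbouring spots are, for each gene and section. For Lcn2 the authors' deposited table has 0.430 and 0.455 in the antibody sections and 0.725 and 0.577 in the ICI-alone sections. For S100a9 it has 0.480 and 0.231, against 0.621 and 0.571, and for Csf3r 0.468 and 0.197, against 0.522 and 0.417. Ngp was at 0.057 and -0.005 in the authors' deposited table with the antibody and at 0.029 and 0.234 with ICIs alone. The score depends on how many spots hold the gene, and these values were not tested.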

How the data were processed

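The deposited data are raw UMI counts per gene and spot for 4 sections, with Space Ranger 2.1.0 named per the file headers and Seurat 5.1.0 and mm10 named per the submitters' processing notes; no source used here names the probe set. Moran's I, a score for each gene in each section, and its adjusted p-value are the authors' deposited values too. The members, the gene lists and the settings were chosen with earlier results of these data known.

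For every section, sums of counts over all of its spots or a class of them were filtered (filterByExpr) and TMM-scaled. Tests used edgeR 4.0.16 (quasi-likelihood; R 4.3.3 and limma 3.58.1), and p-values were adjusted over all genes tested by Benjamini-Hochberg at 0.05. Position tests used the section as a block, and the 20 genes that define immune-rich spots were left out of them. Standard errors are the fold change divided by the square root of F. Levels are TMM-scaled CPM per section or, within positions and gene lists, CPM of the spots summed. Batch numbers in the labels pair the sections; deviations of same-batch sections correlated at 0.18 across 18817 genes, which are not independent. Shares used spots thinned to 5000 UMIs, with exact binomial intervals (95%, counting error only). A count of 3 stands for 0.0627 and 0.0909 CPM in the antibody sections and 0.0410 and 0.0453 CPM in the ICI-alone sections. Counts are not per length, so ratios between genes are compared across sections only.

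All 10 members are named, and per related list up to 4 genes past the threshold with the smallest p, or the 2 most abundant ones. A gene that this rule picks is not reported here. Il17a, Il17ra, Cxcl1, Cxcl5, Csf3, Ly6g, Mpo, Elane and Ptprc are named whatever their values, and for S100a9, Csf3r and Lcn2 the 5 genes nearest in spot pattern with at least 100 thinned UMIs per section. Lists without a named result gave these counts past the threshold in the whole-section test: fibroblast 3 of 5 fell, platelet 1 of 5 fell, mesothelial 3 of 5 and epithelial 2 of 3 rose, B and plasma cell 1 of 6 rose, and eosinophil, mast cell, erythroid, endothelial, cardiomyocyte, atrial and off-tissue lists 0. Alternatives were DESeq2 1.42.0, its size factors, library-size scaling, limma on log CPM, other filters and spot classes, equal totals, the batch block, and leaving out each section or groups of spots. Python 3.11.15 with numpy 2.4.6 and scipy 1.17.1 was used. The tests were checked on simulated data. Positions and promoter sequences come from RefSeq tables of GRCm38.p6, which matched all 10 members by symbol.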

Additional observations from a re-analysis of the deposited data

Results flagged for a closer look

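The interaction of treatment with spot class differed between the groups for Lcn2: immune-rich spots exceeded other spots by 1.39 more on the log2 scale in the antibody sections than in the ICI-alone sections (edgeR adjusted p 0.0109). The direction was the same in all 12 alternatives, and the call was lost in 5 of them.

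At the tissue edge, Csf3r and Ltf moved one way in both antibody sections and the other way in both ICI-alone sections. For Csf3r the edge exceeded the interior by 0.62 and 0.09 on the log2 scale with the antibody and by -0.31 and -0.12 with ICIs alone, a difference of 0.57 between the group means. The interaction test gave 0.57 for it (edgeR adjusted p 0.329). In ICI-alone section 2 the Csf3r sign depends on the kind of edge. There it was at 80.5 CPM at the outer edge, 44.4 CPM around enclosed gaps and 71.0 CPM inside. For Ltf the values were 1.69 and 1.06 with the antibody and -0.50 and -1.36 with ICIs alone, a difference of 2.31, resting on 16 and 9 edge UMIs with the antibody and 9 and 20 with ICIs alone. The interaction test gave 2.56 for Ltf (edgeR adjusted p 0.277). Neither passed the test. Ngp (3.16 and 0.12 with the antibody, -1.70 and -1.96 with ICIs alone) and Camp (2.48 and 0.38, against -0.91 and -1.76) had the same signs on 3 or fewer edge UMIs in at least 1 section, and their interaction tests did not pass either (edgeR adjusted p 0.280 for each).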

How the results depend on the processing

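The fall of S100a8, S100a9, Cxcr2, Csf3r, Retnlg, Mmp8 and Lcn2 over whole sections kept its direction and its call in every alternative in which the gene was tested, 15 or 16 for each, with log2 fold changes from -4.48 to -1.59. Ngp turned to 0.96 over whole sections and 0.97 in other spots without ICI-alone section 2, within ranges of -2.87 to 0.96 and -2.93 to 0.97 with 1 section left out. S100a9 in immune-rich against other spots turned to -0.054 at a 5% threshold, and lay between -0.081 and 0.27 with 1 section left out. Signs also turned for genes near 0. With 1 section left out, Prtn3 lay between -0.50 and 0.25, Il17a between -0.031 and 1.00, Mpo between -0.36 and 0.51, and Elane between -0.25 and 0.13. Mpo was at -0.087 without atrial-rich spots and -0.069 with the choice of 4 atrial genes added after seeing the data. Elane was at 0.062 by library size, 0.079 at equal totals, 0.008 without atrial-rich spots and 0.026 with the added choice.

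Counts of genes called depended more on the setting. The whole-section count of 2229 was 821 at a filter of 10 CPM, 3839 with batch as a replicate block and 1480 without atrial-rich spots, and lay between 329 and 4479 with 1 section left out. In immune-rich spots the count of 6 was 18 and 0 at thresholds of 5% and 20%, 717 with 2000 UMIs, 113 and 423 when ranked by macrophage or T cell genes, 0 by library size, 1121 with no filter, 259 with DESeq2, 326 with the batch block and 0 to 657 with 1 section left out. In other spots 2151 became 4356 with the batch block and 0 to 4161 with 1 section left out. The class interaction count of 94 was 279 and 0 at thresholds of 5% and 20%, 246 with 2000 UMIs, 260 and 701 when ranked by macrophage or T cell genes, 61 by library size, 323 with no filter, 10 with DESeq2 and 5 to 298 with 1 section left out. The edge count of 342 was 12 within 2 steps of the edge, 532 with no filter and 73 to 948 with 1 section left out. The edge interaction count of 0 was 160 within 2 steps, 10 without immune-rich spots and 7 to 978 with 1 section left out. By library size alone, calls were split 3310 higher to 1476 lower in place of 1845 to 2175 between spot classes, 440 to 25 in place of 211 to 131 at the edge, and 826 to 942 in place of 532 to 1619 in other spots. The count of members with separated spot shares, 8, lay between 7 and 10. The cause of these changes was not tested. The block changed no other call of a named gene than those given beside the results. Pairs of sections and few UMIs of Ngp, Ltf, Camp and Retnlg limit what can be seen.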
